A study of Mus musculus with 4 samples.

Results

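The genes described here encode gamma-glutamyl transferases and proteins of glutathione synthesis and export. They are 8 of the 39179 genes counted: the neighbouring chromosome 10 genes Lrrc75b, Ggt1 and Ggt5, the family member Ggt7, the synthesis genes Gclc, Gclm and Gss, and the exporter gene Abcc1. They were picked by symbol with the difference between Tfh and non-Tfh cells in these same libraries already known, so their differences are given as a description with no test. The material was CD4 T cells whose transgenic OT-II receptor recognises ovalbumin, transferred into C57BL/6 hosts that were then immunised under the skin with ovalbumin coupled to nitrophenol. On day 8 after immunisation, Thy-1.1+ transferred cells were sorted from pooled inguinal lymph nodes as CD44hi CXCR5+ PD-1+ follicular helper T (Tfh) cells or as CD44hi CXCR5- PD-1- non-Tfh cells. Both groups share the donor receptor, the host strain, the antigen and the day, and differ in the sorting gate. Each group had 2 libraries, numbered T32 and T53, and the labels do not say what the numbers mark or whether the libraries came from separate animals. P-values therefore measure only the spread between these samples, which may be technical.

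Glutathione is a tripeptide of glutamate, cysteine and glycine that buffers oxidants and is joined to reactive or lipid compounds for their disposal. Glutamate-cysteine ligase (Gclc, its catalytic subunit, and Gclm, its modifier) makes the first bond and glutathione synthetase (Gss) adds glycine. The transporter encoded by Abcc1 carries glutathione and its conjugates, leukotriene C4 among them, out of the cell, where gamma-glutamyl transferases on the cell surface remove the glutamate. Ggt5 has further been described in lymphoid follicles as an enzyme that breaks down S-geranylgeranyl-glutathione, a conjugate that human P2RY8 senses and that confines B cells and Tfh cells to germinal centres; Abcc1 was described as its exporter. Ggt7 belongs to the family by sequence. Lrrc75b encodes a leucine-rich repeat protein.

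The chromosome 10 genes lie in a span of 67078 bases (GRCm38, chromosome 10, 75550123 to 75617200). Lrrc75b (75550123 to 75560330) is on the minus strand and Ggt1 (75561604 to 75586200) on the plus strand. They thus point away from each other, with 1273 bases between their outermost starts in GENCODE M21. The 4 RefSeq windows of Ggt1 described below begin further inside that gene, from 75563882 on. Ggt5 (75589340 to 75617200) follows Ggt1 on the same strand after 3139 bases. RefSeq promoter windows, from 250 bases before to 50 after a start (GRCm38.p6), were at hand for 4 of the 8 genes, with 4 windows for Ggt1 and 1 each for Ggt7, Gclm and Gss. The windows of Ggt1 and Gclm shown here are those that hold the core of the antioxidant response element, the site through which Nrf2 with a small Maf protein is known to act on glutathione genes. Capitals mark the match to TGACNNNGC on either strand.
Ggt1, chr10:75563882-75564181, plus strand: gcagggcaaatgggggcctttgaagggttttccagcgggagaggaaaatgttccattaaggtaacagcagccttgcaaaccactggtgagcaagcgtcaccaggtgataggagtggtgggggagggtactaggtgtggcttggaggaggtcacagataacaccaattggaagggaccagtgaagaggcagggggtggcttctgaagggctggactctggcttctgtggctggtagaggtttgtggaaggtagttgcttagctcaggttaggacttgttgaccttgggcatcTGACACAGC
Ggt1, chr10:75568412-75568711, plus strand: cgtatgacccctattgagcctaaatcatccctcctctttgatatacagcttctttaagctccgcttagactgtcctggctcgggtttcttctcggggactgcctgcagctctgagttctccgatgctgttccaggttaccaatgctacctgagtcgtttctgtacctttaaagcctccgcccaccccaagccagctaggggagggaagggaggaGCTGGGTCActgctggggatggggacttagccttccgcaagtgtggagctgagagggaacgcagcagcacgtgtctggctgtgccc
Ggt1, chr10:75571310-75571609, plus strand: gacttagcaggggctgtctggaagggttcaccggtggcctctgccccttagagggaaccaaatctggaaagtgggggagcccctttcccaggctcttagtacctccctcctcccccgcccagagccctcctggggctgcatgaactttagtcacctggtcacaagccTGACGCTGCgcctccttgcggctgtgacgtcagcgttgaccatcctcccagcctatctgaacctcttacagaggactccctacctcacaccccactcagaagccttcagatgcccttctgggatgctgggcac
Gclm, chr3:122245307-122245606, plus strand: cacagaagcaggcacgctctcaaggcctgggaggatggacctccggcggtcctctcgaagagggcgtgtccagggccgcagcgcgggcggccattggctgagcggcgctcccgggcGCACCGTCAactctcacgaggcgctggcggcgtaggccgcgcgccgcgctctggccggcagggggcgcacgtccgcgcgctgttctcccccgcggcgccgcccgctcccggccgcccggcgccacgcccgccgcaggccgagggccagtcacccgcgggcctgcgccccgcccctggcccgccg
The core was thus in 3 of 4 windows of Ggt1 and in that of Gclm, and 12.4% of all 32851 windows of this length hold it. The windows of Ggt7 and Gss, and the other Ggt1 window, held none of these letters. No member window held TGANTCA, an AP-1 site found in 7.81% of all windows, or TTCNNNGAA, the core bound by STAT factors and Bcl6 found in 8.30%. A match describes letters only, and the counts are per gene, so they do not say which Ggt1 start was used.

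Library totals ran from 5725358 to 13360563 counts, so that a single count stood for 0.0745 to 0.175 CPM (TMM-scaled counts relative to library size). The defining CD4 T cell genes were abundant in all 4 libraries, with the 7 T cell markers summing to 6897 to 8511 CPM while of the CD8 genes Cd8a had 0 to 2 counts and Cd8b1 22 to 74. Of the B cell markers, Ms4a1 had 1 and 0 counts in Tfh cells and 0 and 8 in non-Tfh cells. Only Cd22 and Pax5 of that list passed the count filter, and both were higher in Tfh cells, so the list summed to 145 and 141 CPM in Tfh and 11.4 and 18.8 in non-Tfh libraries. The non-Tfh T53 library held the highest sums of macrophage (9.22 CPM, against 3.43 to 6.81 in the others), dendritic cell (6.74 against 2.60 to 3.28) and stromal markers (3.60 against 1.49 to 2.10). The endothelial list (211 to 236 CPM) was nearly all Pecam1, with Kdr, Tek, Lyve1 and Emcn at 0 counts in every library. Mertk and Cd14 of the macrophage list, Clec9a and Siglech of the dendritic list and Pdpn and Ccl21a of the stromal list also had no count in any library.

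Tfh cells had almost no transcripts of Lrrc75b and Ggt1, less Ggt5 and more Ggt7 than non-Tfh cells. The ligase genes Gclm and Gclc were lower by less than 2-fold, and Gss and Abcc1 were at similar levels. All 8 genes passed the count filter. By the fit over all genes (edgeR quasi-likelihood test, adjusted p under 0.05), 1 member was called higher and 4 lower, against 4.47% and 4.02% of the 11702 genes tested. The groups did not overlap for 6 members, 1 higher and 5 lower, where 26.6% of all genes tested were higher and 25.6% lower without overlap (52.2% in all). The members were chosen on this contrast, so nothing is read from these shares. The median log2 fold change of the members was -0.67, and that of all genes tested was -0.0054. In bulk samples, fewer expressing cells and less RNA per cell cannot be told apart.

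**Figure D1:**
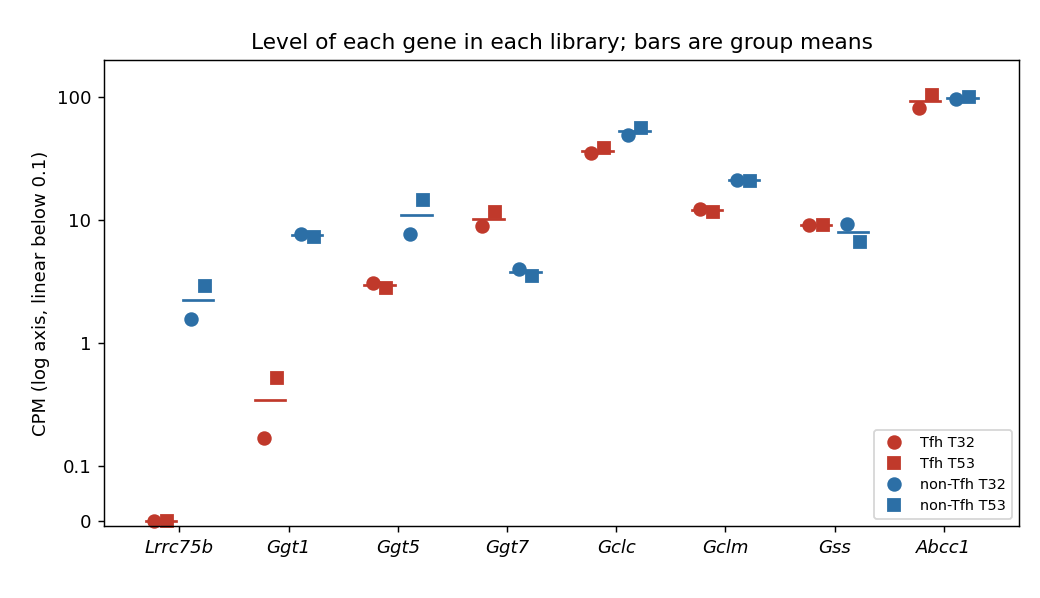
Level of each of the 8 genes in CPM (vertical axis, logarithmic above 0.1 and linear below) in the 2 Tfh (red) and 2 non-Tfh (blue) libraries, with circles for T32, squares for T53 and bars for group means. The Lrrc75b points of Tfh cells lie at 0, Ggt1 at 0.168 and 0.524 CPM, and the 2 groups overlap for Gss and Abcc1.

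Ggt1, the family member best known for glutathione breakdown at the cell surface, had 2 counts in Tfh T32 and 3 in Tfh T53, and 104 and 65 in non-Tfh T32 and T53. As CPM these were 0.168 and 0.524 against 7.75 and 7.31. Both non-Tfh libraries were thus close to each other, and both Tfh libraries were at a few counts. The fitted log2 fold change, Tfh over non-Tfh, was -4.63 ± 0.495 (SE, n = 2 per group), 24.8-fold lower. Since the Tfh value rests on 5 counts, its pooled ratio of 26.7 in favour of non-Tfh cells has a 95% counting interval of 11.2 to 83.4. Intervals and floors cover counting error only. The ratio was 14.4 (4.86 to 70.8) without Tfh T32 and 45.2 (12.3 to 376) without Tfh T53.

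Lrrc75b had no counts in either Tfh library and 21 and 26 counts in non-Tfh T32 and T53, or 1.56 and 2.92 CPM. Its average level over all 4 libraries, the Tfh zeros included, was above that of only 3.14% of the genes tested. Against a floor of 3 counts over the Tfh group it was at least 12.4-fold lower in Tfh cells. With only the shallower Tfh library left (without Tfh T32), the bound was 4.02-fold and the call was lost, and without Tfh T53 it was 8.38-fold.

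Ggt5, which also converts leukotriene C4 to leukotriene D4, measured 3.10 and 2.79 CPM in Tfh T32 and T53, and 7.67 and 14.4 CPM in non-Tfh T32 and T53. The Tfh libraries agreed closely, and the non-Tfh libraries lay apart from each other but both above Tfh. The log2 fold change was -1.87 ± 0.376, 3.67-fold lower in Tfh cells. Within T32 the log2 ratio was -1.31 and within T53 it was -2.36. The call was lost without either Tfh library and without non-Tfh T53 (log2 fold change -1.96, -1.80 and -1.36), and with limma-voom (-1.72). The library with most Ggt5, non-Tfh T53, is also the one with the highest sums of macrophage, dendritic and stromal markers, and their part in the Ggt5 level was not tested. Lrrc75b was likewise highest there, whereas Ggt1 was not.

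Ggt7 went the other way. It measured 8.88 and 11.5 CPM in Tfh T32 and T53 and 4.02 and 3.48 CPM in non-Tfh T32 and T53, with no overlap between groups. The log2 fold change was 1.42 ± 0.269, 2.68-fold higher in Tfh cells, and its call was lost without Tfh T53 (1.25) or non-Tfh T53 (1.32). Ggt7 lies on chromosome 2 (155490379 to 155518237, minus strand), away from the cluster. Its exons share 197 bases with those of Acss2, an acetyl-CoA synthetase gene on the opposite strand that was named after its values were seen. Whether HTSeq counted by strand is not given in the sources used here, so reads there may have been lost or misassigned. Acss2 itself fell in Tfh cells, from 33.5 CPM ± 5.29 to 15.4 ± 2.15 (mean ± SD, n = 2, adjusted p = 0.0181), the direction opposite to that of Ggt7.

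The make-up of the family within each library does not depend on scaling between libraries. Of the counts on Ggt1, Ggt5 and Ggt7 together, Ggt7 took 73.1% in the T32 library of Tfh cells (Clopper-Pearson 95% interval 65.1 to 80.1%, 145 counts) and 77.6% in Tfh T53 (67.3 to 86.0%, 85 counts). In non-Tfh T32 it made up 20.7% (15.9 to 26.1%, 261 counts) and in non-Tfh T53 13.8% (9.60 to 19.1%, 224 counts). Among these 3 genes, Ggt7 therefore had the most counts in both Tfh libraries and the fewest in both non-Tfh libraries. Ggt6, a further family member not in this total, had 0 and 1 counts in Tfh T32 and T53 and 0 in both non-Tfh libraries. Ggt1 made up 1.38% and 3.53% in Tfh T32 and T53, and 39.8% and 29.0% in non-Tfh T32 and T53. Divided by exon length, the share of Ggt7 was 82.6% and 84.95% in Tfh and 25.7% and 18.9% in non-Tfh libraries. The 3 genes together summed to 12.1 and 14.8 CPM in Tfh and 19.4 and 25.2 CPM in non-Tfh cells.

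**Figure D2:**
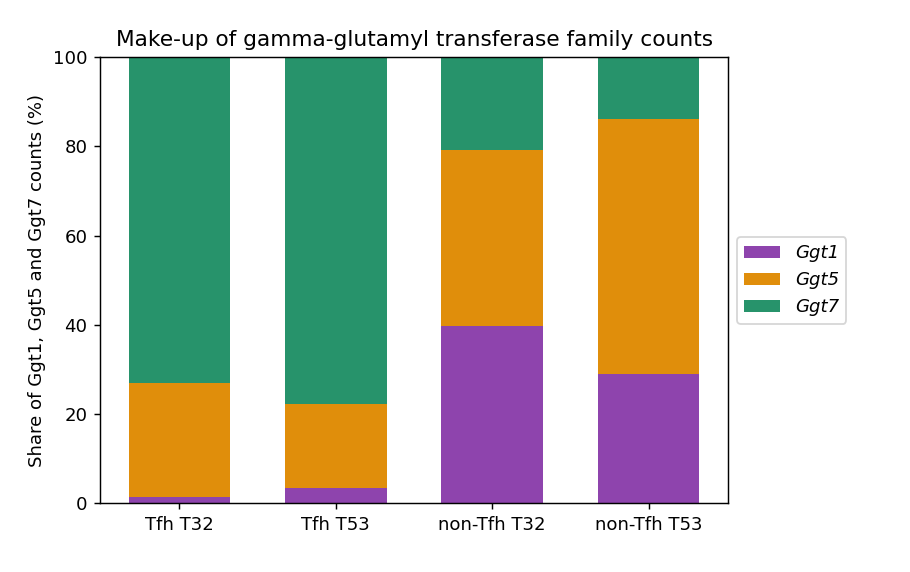
Share of each gene (colour) in the summed counts of Ggt1, Ggt5 and Ggt7, in percent (vertical axis), for each of the 4 libraries (horizontal axis). Ggt7 holds 73.1% and 77.6% in the Tfh bars and 20.7% and 13.8% in the non-Tfh bars.

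Both genes of the ligase had lower levels in each Tfh library than in either non-Tfh library, and Gclm was called. It measured 12.2 and 11.7 CPM in Tfh T32 and T53 and 21.2 and 20.8 CPM in non-Tfh T32 and T53, with little spread within either group. Its log2 fold change was -0.81 ± 0.162, 1.75-fold lower. The call of Gclm was lost with DESeq2 (-0.81) and with any of the 4 libraries left out (-0.84 to -0.76). Exons of Gclm share 244 bases with the pseudogene Gm6061 on the same strand and 296 bases with Gm17494 on the opposite strand. Both of these genes had at most 1 count in a library, and reads there may have been lost or misassigned. Gclc measured 34.9 and 38.1 CPM in Tfh T32 and T53 and 49.2 and 55.9 CPM in non-Tfh T32 and T53, again without overlap. Its log2 fold change was -0.53 ± 0.135, 1.44-fold lower, and it was not called, but it was called with a replicate block (-0.52) and with no count filter (-0.53). The ratio of Gclc to Gclm per exon length was 4.77 in Tfh T32 (95% counting interval 3.94 to 5.80) and 5.44 in Tfh T53 (4.12 to 7.26), against 3.88 (3.37 to 4.48) in non-Tfh T32 and 4.49 (3.78 to 5.34) in non-Tfh T53. Both Tfh ratios lay above both non-Tfh ratios, but the intervals of the groups overlapped, and the difference in this ratio was not tested.

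Gss, the second synthesis step, measured 9.05 and 9.08 CPM in Tfh T32 and T53 and 9.24 and 6.63 CPM in non-Tfh T32 and T53, so the Tfh values lay between the non-Tfh values. Its log2 fold change of 0.18 ± 0.25 had the opposite sign without non-Tfh T53 (-0.027). Exons of Gss share 395 bases with those of Acss2 on the opposite strand, and 385 and 322 bases with the antisense genes Gssos2 and Gssos1, which had at most 1 count in a library. Abcc1, the exporter, was the most abundant member by counts, at 81.6 and 104 CPM in Tfh T32 and T53 and 95.9 and 99.1 CPM in non-Tfh T32 and T53. Its groups overlapped, with a log2 fold change of -0.079 ± 0.144 that had the opposite sign without Tfh T32 (0.091).

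Per exon length, as TMM-scaled RPKM (CPM per kilobase of exon), the order of levels in non-Tfh cells was Gclc (13.9 ± 1.26), Abcc1 (6.46 ± 0.154), Gclm (3.33 ± 0.0404), Ggt1 (2.21 ± 0.0913), Ggt5 (1.86 ± 0.802), Gss (1.34 ± 0.311), Ggt7 (1.15 ± 0.116) and Lrrc75b (0.487 ± 0.209). There the ranges of Ggt5 and Ggt1, of Gss and Ggt5, and of Ggt7 and Gss overlapped, so those neighbours in the order do not differ beyond their spread. In Tfh cells the order was Gclc (9.69 ± 0.59), Abcc1 (6.14 ± 1.03), Ggt7 (3.13 ± 0.573), Gclm (1.90 ± 0.0595), Gss (1.53 ± 0.00407), Ggt5 (0.498 ± 0.0365), Ggt1 (0.101 ± 0.0739) and Lrrc75b at 0 counts, with no overlap between neighbours. Ggt7 thus stood in the third place in Tfh cells and the seventh in non-Tfh cells. Exon length was that of all annotated exons of a gene merged, 15092 bases for Abcc1 and 3766 for Gclc. By mean CPM, Abcc1 stood above Gclc in non-Tfh (97.5 against 52.5) and Tfh cells (92.6 against 36.5). The order of these 2 genes therefore depends on the length used.

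The genes around the cluster had smaller differences, but the cluster genes were chosen on this contrast, so nothing is read from that. Within 250 kb on either side, 17 other genes were counted and 10 tested. None of these was called higher (edgeR, 1 at an unadjusted p under 0.05) and 1 lower, against 4.47% and 4.02% of all genes tested. The log2 fold changes of the 10 neighbours tested ran from -0.58 to 0.91 with a median of 0.068, against values of -1.87 and beyond in the cluster. The sign of that median depended on the window, as the 4 genes tested within 100 kb had a median of -0.30. The gene that fell was Gucd1, which encodes a guanylyl cyclase domain protein, with 32.01 CPM ± 1.30 in Tfh and 47.8 ± 1.94 in non-Tfh cells (log2 fold change -0.58 ± 0.127, adjusted p = 0.0442). Its call was lost with DESeq2 (adjusted p = 0.0599), with limma-voom (0.0517) and with any library left out (0.0628 to 0.251). The nearest tested genes were not called. Snrpd3, a spliceosome protein gene whose annotated end lies 12742 bases from Lrrc75b, measured 10.1 CPM ± 0.479 in Tfh and 15.0 ± 4.56 in non-Tfh cells (adjusted p = 0.253). Susd2, a sushi domain protein gene 19506 bases beyond Ggt5, measured 18.7 CPM ± 14.5 against 9.66 ± 0.807 (adjusted p = 0.474). With a library left out, the neighbours called were Susd2 (higher, log2 fold change 1.59, without Tfh T32), Mif (higher, 0.72, without non-Tfh T32) and Gstt1 (lower, -2.67, without non-Tfh T53), the last with 51 counts in non-Tfh T32 and 1 to 5 in the other libraries.

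**Figure D3:**
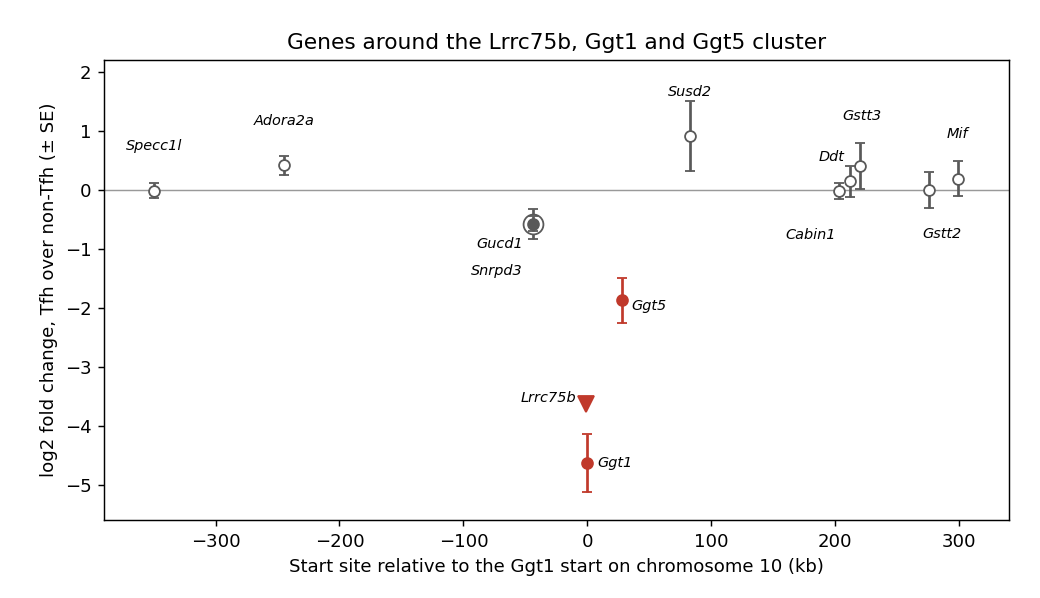
Log2 fold change of Tfh over non-Tfh cells (vertical axis, error bars 1 SE) for the tested genes around the cluster, by distance of their start from the Ggt1 start in kb (horizontal axis). Filled points were called, open points were not, red marks the cluster, and the triangle marks the Lrrc75b bound against 3 counts. Gucd1 lies inside the open ring of Snrpd3 at -0.58, and the other neighbours lie between -0.022 and 0.91.

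Genes with the profile over the 4 libraries most like that of each cluster gene were found by Euclidean distance of mean-centred log2 CPM (prior count 2) among 9144 genes of at least 5 CPM. For Ggt1 the nearest was Havcr2, the checkpoint receptor TIM-3 (distance 0.204, 0.475 CPM ± 0.316 in Tfh and 9.94 ± 0.888 in non-Tfh cells), then Coro2a (0.677) and Dennd5a (0.702). For Lrrc75b they were Cd7 (0.367), Arl4c (0.441) and the T zone receptor gene Ccr7 (0.470), and its own distance depends on the prior count because its Tfh values are 0. For Ggt5 they were Il12rb2, an IL-12 receptor chain (0.243, 2.13 CPM ± 0.30 against 9.16 ± 3.26), Hid1 (0.317) and Arhgap29 (0.337). The distances of Ggt1 depend on the prior count as well, since Ggt1 had 2 and 3 counts in Tfh T32 and T53. Havcr2 was at 0.251 and 0.699 CPM in those libraries. With 4 libraries, such likeness describes a shared pattern of levels only.

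The other genes of glutathione metabolism were taken from 7 lists of textbook genes. Of 107 genes, 69 were tested, and 7 rose and 6 fell in Tfh cells, with a median log2 fold change of 0.058. That is 18.8% called, against 8.49% of all genes tested, but the lists were drawn up with earlier results of these data known. Nothing is read from this share or from the counts called in each list below. The calls were in conjugation, export, leukotriene receptors and Nrf2 regulation.

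Among exporters 2 of 6 tested genes rose and 2 fell (median -0.069), against 4.47% and 4.02% of all genes tested. Abcc3, a conjugate exporter related to Abcc1, was at 1.66 CPM ± 0.0335 in non-Tfh and 14.1 ± 6.52 in Tfh cells, an 8.27-fold rise (adjusted p = 0.00931). Abcc5, known for export of cyclic nucleotides and conjugates, rose 1.89-fold from 43.9 CPM ± 0.689 to 82.8 ± 2.43 (adjusted p = 0.00737). Abcc4, which carries cyclic AMP and prostaglandins, fell 1.62-fold from 83.7 CPM ± 7.36 to 51.8 ± 4.30 (adjusted p = 0.0267). Abcg2, a broad drug exporter, fell 2.59-fold from 5.64 CPM ± 0.0287 to 2.13 ± 0.30 (adjusted p = 0.047). The groups did not overlap for these 4 genes, as for 52.2% of all genes tested, and they overlapped for Abcc1. These 4 genes were named because they were called, so nothing is read from that. Abcc4 lost its call when either Tfh library was left out (adjusted p = 0.133 without T32 and 0.0733 without T53) or without non-Tfh T53 (0.0549), and Abcg2 did so with DESeq2 (0.121), limma-voom (0.0521) or any library left out (0.105 to 0.202).

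Of 15 tested conjugation genes 2 rose and 1 fell (median 0.18), against 4.47% and 4.02% of all genes tested. Hpgds, the glutathione-dependent prostaglandin D synthase, rose from 2.39 CPM ± 1.07 to 11.7 ± 0.0401, or 4.99-fold (adjusted p = 0.0133). Gstm4, a glutathione transferase, rose 3.52-fold from 1.06 CPM ± 0.0747 to 3.81 ± 0.0512 (adjusted p = 0.0325), and Gsto1, an omega-class transferase, fell 3.12-fold from 6.09 CPM ± 0.661 to 1.97 ± 0.179 (adjusted p = 0.0283). Gstm4 belongs to a family of similar genes, and how reads that match several of them were counted was not examined, so its value is uncertain. The call of Gstm4 was lost with DESeq2 (adjusted p = 0.0908) and with any library left out (0.0978 to 0.144), and Gsto1 lost its call when the Tfh library T32 (0.125) or T53 (0.0851) or the non-Tfh library T32 (0.0987) was left out.

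Receptors for leukotrienes, lipids that arise from glutathione conjugates or their precursor, differed among themselves, with Cysltr1 and Ltb4r1 nearly absent from Tfh cells and Cysltr2 present in both groups. Cysltr1, the receptor for leukotriene D4, had 0 and 1 counts in Tfh T32 and T53 and 137 and 49 in non-Tfh T32 and T53, a ratio of 147 in favour of non-Tfh cells (95% counting interval 26.1 to 5843, adjusted p = 0.00704). Ltb4r1, the receptor for leukotriene B4, had 1 and 0 counts against 69 and 26, a ratio of 75.2 (13.2 to 2999.6, adjusted p = 0.00889). Each was close to 0 in both Tfh libraries. Without Tfh T32 the ratio of Cysltr1 was 47.7 and Ltb4r1 was at least 8.12-fold lower. Without Tfh T53 Cysltr1 was at least 33.2-fold lower and the ratio of Ltb4r1 was 50.8, and without non-Tfh T32 the ratios were 97.3 and 51.6. Cysltr2, the other cysteinyl leukotriene receptor, measured 7.68 CPM ± 1.74 in Tfh and 6.55 ± 1.48 in non-Tfh cells (adjusted p = 0.770). Of the synthesis enzymes, Alox5 and Ltc4s had no counts in any library. Lta4h, another of them, measured 52.1 CPM ± 0.983 in Tfh and 62.5 ± 1.85 in non-Tfh cells (edgeR, adjusted p = 0.248). The list had 4 tested genes, 2 lower and none higher (edgeR, with none higher at an unadjusted p under 0.05). The shares over all genes tested were 4.02% lower and 4.47% higher. The median of the list was -3.25 when Cysltr1 and Ltb4r1 are set at their pooled ratios. That value lies between these 2 receptors and the other 2 tested genes, Lta4h (log2 fold change -0.26) and Cysltr2 (0.20), and describes none of the 4.

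In the list of Nrf2 and Bach1 regulation 3 of 15 tested genes rose and 1 fell (median 0.11). The shares over all genes tested were 4.47% and 4.02%. Mafg, a small Maf partner of Nrf2 and of the Bach repressors, rose from 31.0 CPM ± 0.238 to 103 ± 12.1, or 3.30-fold (adjusted p = 0.00168). Hmox1, the haem oxygenase that Bach1 represses, rose 4.14-fold from 2.61 CPM ± 0.20 to 11.03 ± 2.68 (adjusted p = 0.0117), and Srxn1, sulfiredoxin, rose 10.8-fold from 2.86 CPM ± 0.067 to 31.7 ± 21.6 (adjusted p = 0.0351). Bach2, a repressor that restrains effector T cells, fell 3.81-fold from 91.5 CPM ± 38.7 to 24.3 ± 5.91 (adjusted p = 0.0385). Nfe2l2, which encodes Nrf2, measured 62.0 CPM ± 1.93 in Tfh and 61.1 ± 3.99 in non-Tfh cells (adjusted p = 0.949), and Nqo1, a standard Nrf2 target, 0.422 ± 0.35 against 1.14 ± 0.18 (adjusted p = 0.328). Nqo1 had only 8 and 1 counts in Tfh T32 and T53 and 17 and 9 in non-Tfh T32 and T53. Bach1 measured 39.9 CPM ± 2.76 in Tfh and 29.5 ± 3.14 in non-Tfh cells and was not called (edgeR, adjusted p = 0.135). Nfe2l2, Nqo1 and Bach1 were named after their values were seen. The call of Srxn1 was lost with limma-voom (adjusted p = 0.0643) and without non-Tfh T32 (0.343) or non-Tfh T53 (0.416), and its log2 fold change was 3.43, with 4.03 without Tfh T32 and 2.53 without Tfh T53. That of Bach2 was lost without Tfh T32 (0.189) or Tfh T53 (0.137).

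No gene passed the edgeR test in the other 3 lists, but 5 did with a replicate block and the same 5 with no count filter. With a library left out, Slc1a4, Slc25a39 and Pmvk, described below, were also called. Their log2 fold changes were 3.39 for Slc1a4 without Tfh T32, and 0.84 for Slc25a39 and 1.17 for Pmvk without non-Tfh T32. In the gamma-glutamyl cycle and precursor supply 0 of 9 tested genes were called by edgeR (1 at an unadjusted p under 0.05), 1 by DESeq2 and 0 by limma-voom, with a median of 0.10. The gene called by DESeq2 was Slc1a4, a transporter of neutral amino acids named after its values were seen, with 51 and 126 counts in Tfh T32 and T53 and 29 and 18 in non-Tfh T32 and T53. Its Tfh level of 13.1 CPM ± 12.5 varied by more than its distance from the non-Tfh level of 2.09 ± 0.0967. The glutamine transporter Slc1a5 measured 155 CPM ± 14.3 in Tfh and 165 ± 8.49 in non-Tfh cells. Slc3a2, the shared heavy chain of the cystine exchanger, measured 55.7 ± 0.665 against 51.9 ± 6.35. Slc7a11, the other chain of that exchanger, had 2 and 0 counts in Tfh T32 and T53. It had 5 and 3 in non-Tfh T32 and T53 and did not pass the count filter. In glutathione oxidation and reduction 0 of 11 were called by edgeR (4 at an unadjusted p under 0.05, 1 higher and 3 lower), DESeq2 or limma-voom (median 0.028). With the block or with no filter Slc25a39, a mitochondrial glutathione carrier, was called higher (log2 fold change 0.62 in both) and the glutaredoxin gene Glrx lower (-0.54 and -0.55). The peroxidase gene Gpx1 measured 71.8 CPM ± 7.69 against 89.6 ± 21.7, and Gpx4, which reduces lipid peroxides, 64.9 ± 10.8 against 62.0 ± 5.65. In geranylgeranyl donor supply 0 of 9 were called by any of the 3 tools (edgeR, 3 at an unadjusted p under 0.05, 1 higher and 2 lower, median 0.12). With the block or with no filter 3 were called, Pmvk higher (log2 fold change 0.82 and 0.81) and Mvd (-1.22 and -1.21) and Idi1 (-1.02 and -0.997) lower, all of them enzymes of the mevalonate route. Ggps1, which makes geranylgeranyl diphosphate, measured 44.3 CPM ± 1.12 against 49.4 ± 2.72, and Rabggta, a geranylgeranyl transferase subunit, 38.5 ± 2.64 against 32.2 ± 0.259.

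**Figure D4:**
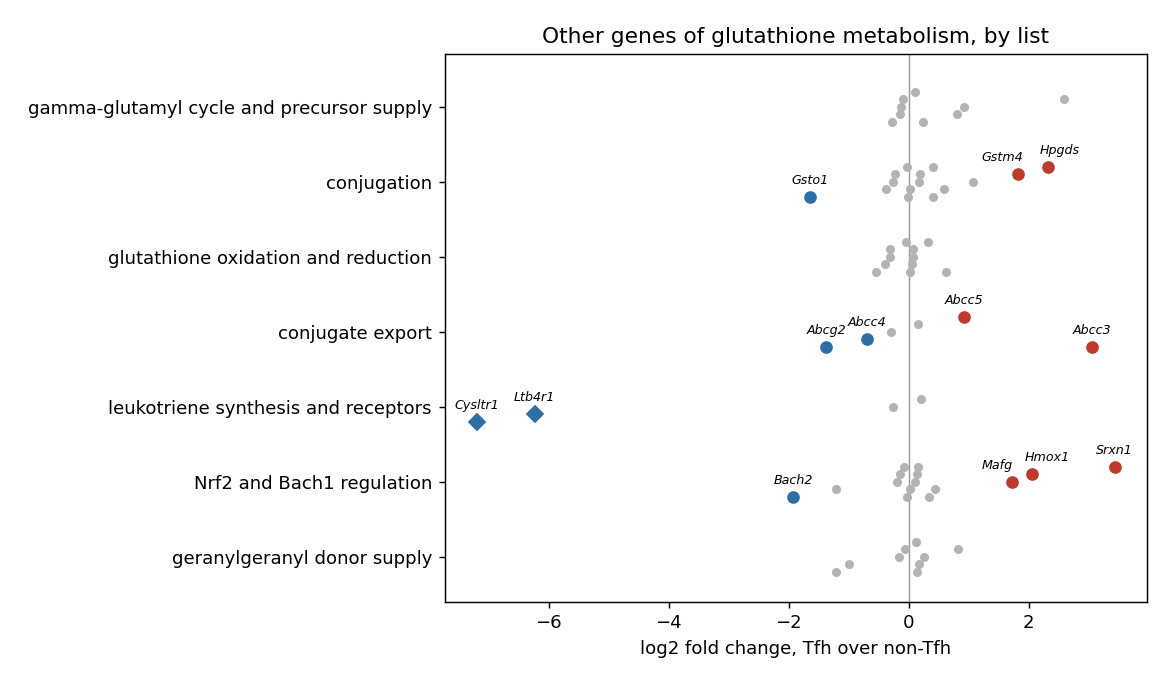
Log2 fold change of Tfh over non-Tfh cells (horizontal axis) for each tested gene of the 7 other lists (rows), with genes called higher in red, called lower in blue and not called in grey. The diamonds at the far left are Cysltr1 and Ltb4r1, drawn at their pooled count ratios because they had 1 count in Tfh cells, and points are shifted vertically only for legibility.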

How the data were processed

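The files deposited by the authors hold raw counts per Ensembl gene, 1 library each, from stranded total RNA sequenced in pairs, per the labels' protocols. TopHat2, Bowtie2 and HTSeq with GRCm38 (mm10) are named in the submitters' processing notes, and versions, annotation release and strand setting are not given in the sources used here. Symbols, positions and exon lengths (all annotated exons of a gene merged) came from GENCODE M21 (GRCm38), which matched 37693 of 39179 identifiers. Promoter windows came from RefSeq (GRCm38.p6).

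Groups came from the sample titles. In R 4.3.3 with edgeR 4.0.16, filterByExpr left 11702 genes, counts were TMM-scaled, and robust quasi-likelihood fits of the group (2 residual degrees of freedom, biological coefficient of variation 0.156) gave two-sided tests, adjusted by Benjamini-Hochberg over all genes and called at 0.05. The SE was derived from the F statistic and adds nothing to the test. A group without counts was set to a floor of 3 counts over the group. Counting intervals are exact binomial (95%).

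The members and lists were chosen with earlier results of these data known. Named genes were the members, up to 4 called genes per list (mean of at least 1 CPM) or, with none called, the 2 most abundant, called and nearest chromosome 10 neighbours, and the 3 nearest profiles per cluster gene. Cysltr2, Alox5, Ltc4s, Lta4h, Slc7a11, Acss2, Nfe2l2, Nqo1, Bach1, Ggt6, Slc1a4, Mif, Gstt1, Slc25a39, Glrx, Pmvk, Mvd and Idi1 were named after their values were seen. Alternatives were DESeq2 1.42.0, limma-voom (limma 3.58.1), scaling by RLE or upper quartile, no filter, at least 5 CPM in 2 libraries, no robust option, a replicate block, each library left out, and a window of 100 kb for the neighbours. The code was tested on simulated data. Figures used matplotlib 3.10.9.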

Additional observations from a re-analysis of the deposited data

How the results depend on the processing

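Scaling by RLE or upper quartile and omitting the robust option changed no call of a member. The counts over all genes were 523 higher and 471 lower, and became 1006 and 980 without a count filter and 1069 and 1051 with the library number as a replicate block. The labels do not say that the number pairs libraries (the T32 minus T53 deviations correlated at 0.368 between groups). With a library left out they were 298 to 454 higher and 247 to 435 lower, the lowest without Tfh T53. The number of members called higher was 0 to 1 and lower 1 to 3, where 1 and 4 were called with all libraries. The other glutathione genes called, 7 higher and 6 lower, became 9 and 9 without a count filter or with the block. With a library left out they were 5 to 7 higher and 2 to 5 lower, with only 2 lower without Tfh T32 or Tfh T53. The chromosome 10 neighbours called were 0 to 1 in each direction, and 0 lower with DESeq2 or limma-voom. The sign of Abcc1 turned without Tfh T32 and that of Gss without non-Tfh T53 (log2 fold changes with a library left out of -0.24 to 0.091 for Abcc1 and -0.027 to 0.45 for Gss). The cause of these changes was not tested. Ggt1 kept its call and direction under every alternative run. Depth limits Lrrc75b and Ggt1 in Tfh cells, where 0 and 5 counts set only wide ratios.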
